A study of Drosophila melanogaster with 14 samples.

Results

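InR and E2f1 are neighbouring Drosophila genes on chromosome arm 3R, and the peaks described here are those of 5 chromatin immunoprecipitation lists that shared at least 1 bp with the interval from 17390000 to 17500000 of 3R on the dm3 build. The interval, 110 kb long, was chosen by the density of Yki and GAF peaks of both tissues in it, so its peak numbers are a description and were given no test. It held 106 of the 29537 peaks of the series: 16 of Yki, 32 of GAF and 6 of trimethylated histone H3 lysine 4 (H3K4me3) in embryos, and 23 of Yki and 29 of GAF in wing imaginal discs.

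All material came from the Iso1 strain. Embryos were whole and aged 8 to 16 hours, and wing imaginal discs, the larval sheets that form the adult wings, were dissected from wandering L3 larvae. The lists stand for 3 GAF, 3 Yki and 2 H3K4me3 libraries of embryos, and 2 GAF libraries and 1 Yki library of discs, with 1 list per antibody and tissue. No spread between replicates can therefore be given, depth is unknown, and a peak says only that the authors' caller passed it. Whole embryos and whole discs mix many cell types, so a peak cannot be placed in a cell type.

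InR encodes the receptor for insulin-like peptides, which couples nutrition to cell and body growth through PI3 kinase and Akt. E2f1 encodes the activating E2F transcription factor, which binds DNA with its partner Dp, turns on genes of DNA replication and S phase, and is held in check by the retinoblastoma protein Rbf. Yorkie (Yki) is the growth-promoting coactivator restrained by the Hippo pathway and reaches DNA through partners such as Scalloped. GAGA factor (GAF), made by the gene Trithorax-like, recognises GA repeats and keeps promoters accessible, where H3K4me3 is found when they are active.

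InR was taken to lie at about 17395000 to 17445000 and E2f1 at about 17450000 to 17490000. These spans are approximate and, as no dm3 annotation was used here, no peak is assigned to an exon, an intron or a start site. In the RefSeq table of Release 6, a different build used for names and order only, InR and E2f1 are adjacent with 0 genes between them. CG15498 precedes InR and Archease, Jhbp16 and PolA1 follow E2f1. InR contains 2 non-coding genes (lncRNA:Irar and lncRNA:CR44034), and E2f1 contains 5, among them the microRNA genes mir-11 and mir-998.

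For Yki and GAF the flank toward higher coordinates was emptier than the lower one. Yki and GAF peaks ran from 17405776 to 17497367, over 91.6 kb, and the first 15775 bp of the window held no peak of any list. Just outside the lower edge lay a GAF embryo peak (17386327 to 17388074), a Yki embryo peak (17387163 to 17387692) and a GAF disc peak (17387247 to 17387580). Toward higher coordinates the next Yki embryo peak after the last in the window was 157 kb away and the next Yki disc peak 109.8 kb. The corresponding peak-free distances were 64.4 kb for GAF in embryos, 58.8 kb for GAF in discs and 47.3 kb for H3K4me3. Within the window, 56.5% of the length lay in no peak.

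**Figure D1:**
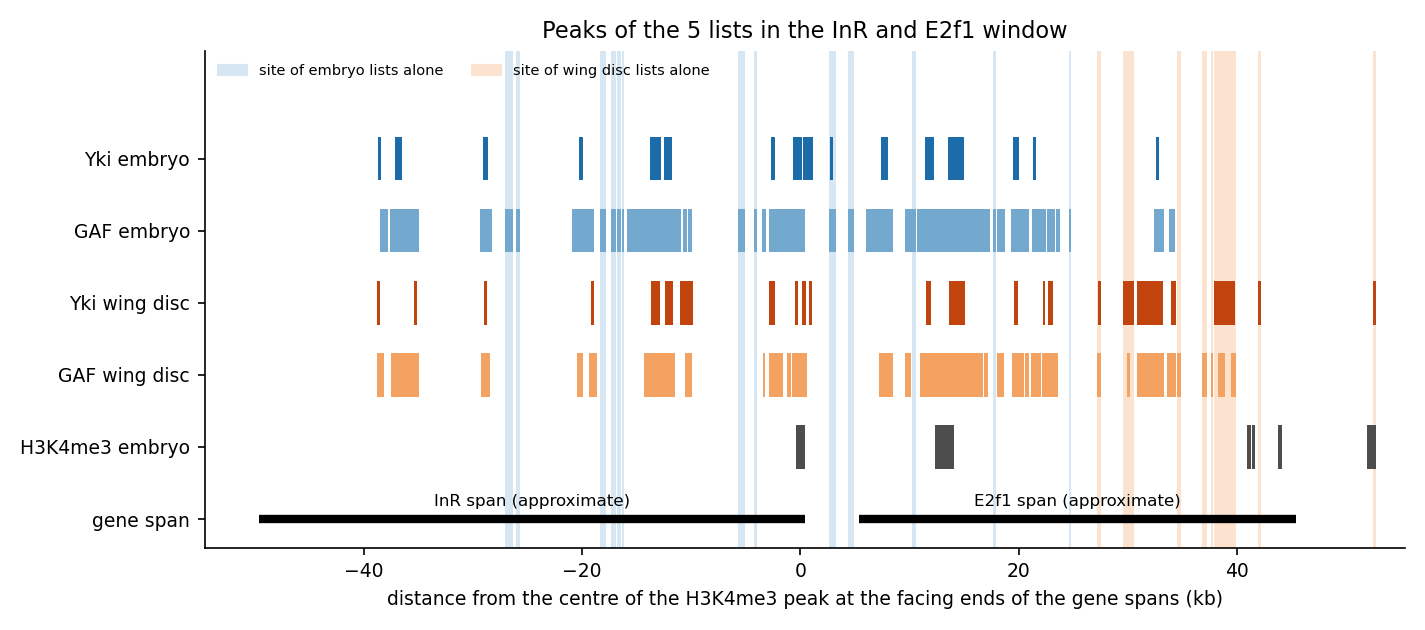
Peaks of the 5 lists drawn to scale against the distance in kb from the centre of the H3K4me3 peak at 17444173 to 17445042, with the approximate gene spans below. Pale bands mark merged sites made of embryo lists alone (13, all on the left) and of wing disc lists alone (8, all on the right).

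The window held many Yki and GAF peaks but an ordinary number of H3K4me3 peaks. Of 1094 windows of the same length tiled over the chromosome arms, without those that touch this locus, 2 held as many Yki embryo peaks or more, 2 as many GAF embryo peaks, 5 as many Yki disc peaks and 0 as many GAF disc peaks, which restates how the window was chosen. For H3K4me3, which did not enter that choice, 504 of the 1094 windows held 6 peaks or more, and the median was 5. The 10 other windows with most Yki and GAF peaks (68 to 111, against 100 here) held between 3 and 21 H3K4me3 peaks, with a median of 7.50. The H3K4me3 peaks of the window were narrow, with a median width of 597.5 bp against 1262 bp over the list, and 1 of the 6 was wider than that list median.

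All 16 Yki embryo peaks of the window overlapped a GAF embryo peak (100%, 95% Wilson interval 80.6 to 100), against 68.8% of the whole Yki embryo list. In discs 20 of 23 Yki peaks overlapped a GAF disc peak (87.0%, 67.9 to 95.5), against 63.0% of the list. Overlap rises with peak density, on which the window was chosen, so neither share is evidence about the locus. The intervals cover counting error only. In the other direction, 12 of 32 GAF embryo peaks (37.5%, 22.9 to 54.7) carried Yki, against 32.7% of the list, and 17 of 29 GAF disc peaks (58.6%, 40.7 to 74.5), against 51.8%. Both of these shares were near those of the whole lists. Across protein and tissue, 15 of 16 Yki embryo peaks met a GAF disc peak (93.8%, against 72.2% of the list) and 16 of 23 Yki disc peaks met a GAF embryo peak (69.6%, against 43.2%). Of the GAF peaks, 13 of 32 in embryos met Yki of discs (40.6%, against 34.7%) and 12 of 29 in discs met Yki of embryos (41.4%, against 35.8%). The same limit of peak density holds for these shares across tissues, which are no evidence about the locus either. How far Yki lay inside GAF differed among peaks, and 14 of the 16 Yki embryo peaks lay wholly within a GAF peak. The Yki peak at 17405861 to 17406116 shared 15 bp with its GAF peak and the one at 17444845 to 17445757 shared 185 bp. Peaks wholly within others were counted in the window alone, without the whole list beside them, so the count is no evidence about the locus. The 3 Yki disc peaks with no GAF disc peak, at 17445398 to 17445701, 17486544 to 17486830 and 17497095 to 17497367, had scores of 10.19, 8.47 and 8.08, all below the list median of 13.63. Such peaks over the list had a median of 11.30, so low scores of this class are not particular to the locus.

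**Figure D2:**
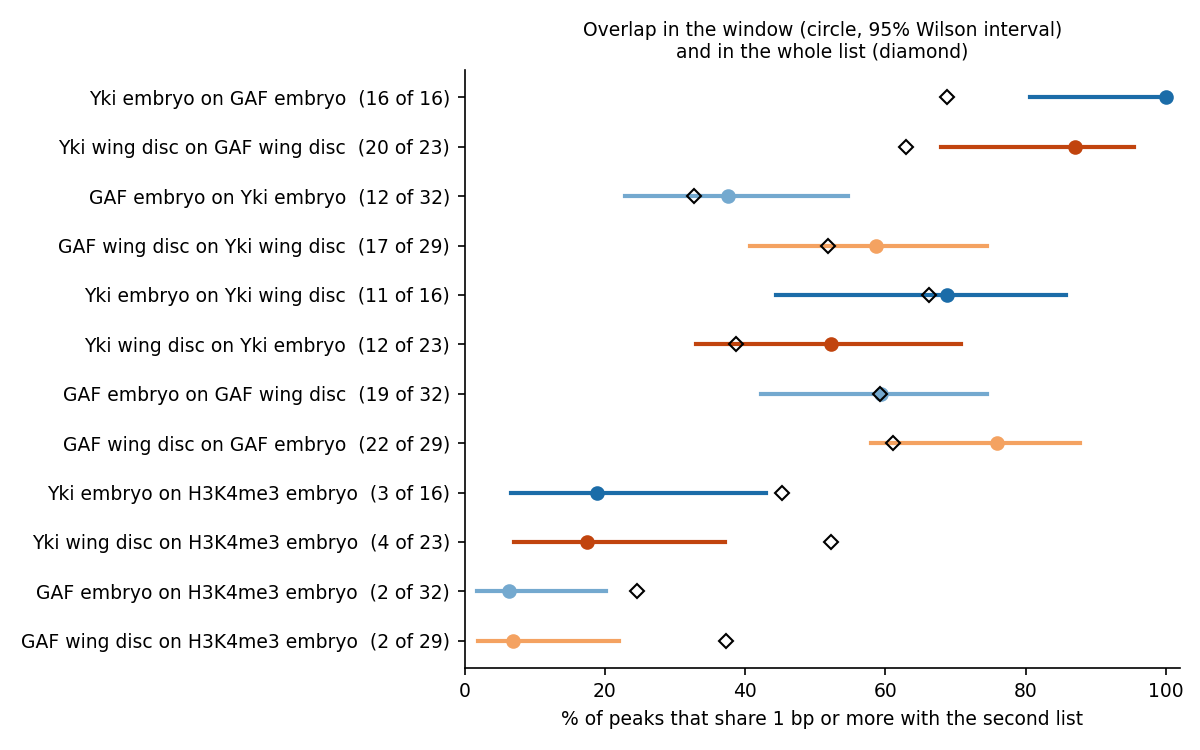
Share of peaks of a first list that overlap a second list by at least 1 bp, for the window (circles, bars are 95% Wilson intervals) and for the whole list (diamonds). Yki peaks lay on GAF more often here than in the whole lists, 100% against 68.8% in embryos, and all 4 lists met H3K4me3 less often. The window was chosen for its density of Yki and GAF peaks and not for H3K4me3, so neither contrast is evidence about the locus.

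The authors' disc score, which ranks peaks within 1 list only, had medians near those of the whole lists. The median score of the 23 Yki disc peaks was 15.28 against 13.63 for the list, and 12 of them lay above the list median. For the 29 GAF disc peaks the median was 38.67 against 34.705, and 15 lay above. Yki scores ran from 7.82 to 31.93 and GAF scores from 6.69 to 368.30, well below the highest of each list, 115.33 and 931.01. The embryo lists hold no score, and there 9 of 16 Yki and 17 of 32 GAF peaks were wider than their list's median of 438 and 583 bp. Over the 4 factor lists, the share of window peaks above the list median, by score in discs and width in embryos, lay between 51.7% and 56.2%. Yki embryo peaks stood higher at the upper end, with 7 of 16 (43.8%) above the upper quartile of their list's widths and a median of 578.5 bp.

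**Figure D3:**
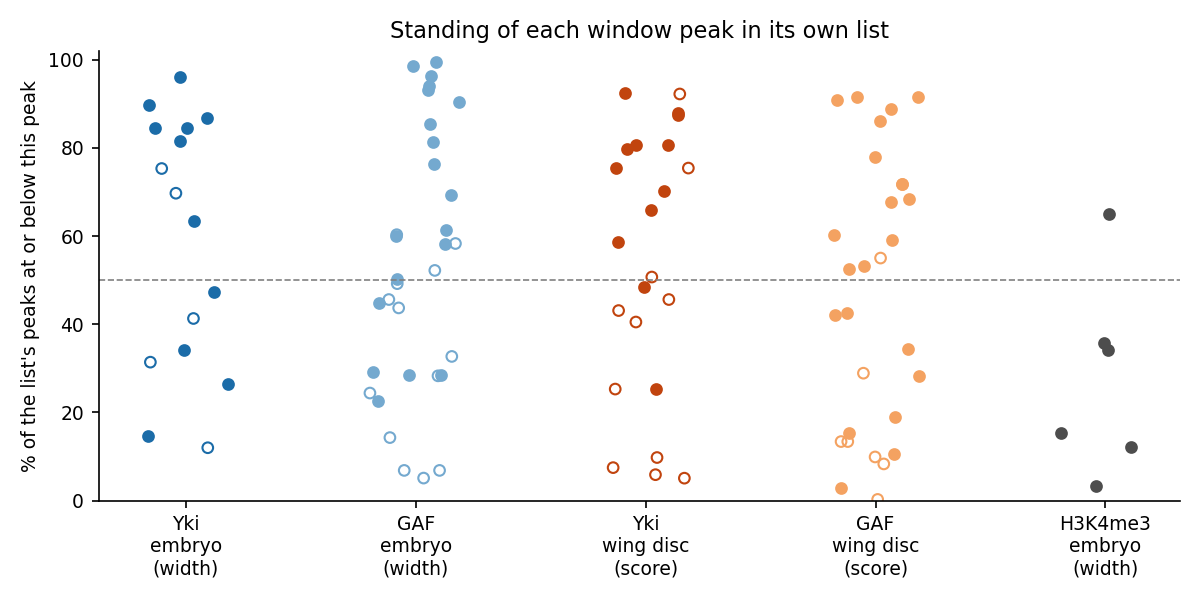
Standing of each of the 106 peaks in its own list, as the percentage of that list with an equal or lower score (wing disc) or width (embryo). Filled circles overlap the same protein's list in the other tissue, open circles do not, and all H3K4me3 peaks are filled; the dashed line is the list median.

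The strongest disc peaks of GAF lay at 5 places spread over both genes. The highest score, 368.30, belonged to the peak at 17455571 to 17461322 in the E2f1 span, followed by 367.07 at 17443846 to 17445240 at the end of InR that faces E2f1. Scores of 353.64 at 17430266 to 17433097 (InR), 322.60 at 17475448 to 17477975 (E2f1) and 289.51 at 17463992 to 17465096 (E2f1) came next. Ranks in the list of 6328 went from 536 to 879, so none was among its very strongest peaks. Each of these 5 GAF peaks overlapped a Yki peak in embryos and in discs. Over the whole list, GAF disc peaks on Yki disc peaks had a median score of 114.90, against 18.87 for those without. Overlap of strong GAF peaks with Yki is therefore not particular to this locus.

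The strongest Yki disc peaks were mostly on the InR side and did not follow the order of GAF. Their scores were 31.93 at 17441766 to 17442310, 31.38 at 17433576 to 17434771, 27.10 at 17475437 to 17477801, 26.58 at 17405776 to 17406086 and 22.56 at both 17444721 to 17445119 and 17464142 to 17464587. The peak with 27.10 lay on the GAF peak with 322.60, and the tied pair lay on those with 367.07 and 289.51. The Yki peak with 31.38 lay over a GAF disc peak of 25.22 and the one with 26.58 over 15.83, both below the GAF list median. The Yki peak with 31.38 was the strongest without a Yki embryo peak.

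In embryos 3 of the 5 widest GAF peaks fell on the places of the strongest GAF disc peaks. The 5 widest GAF embryo peaks measured 6636 bp (17455317 to 17461952, rank 37 of 6470), 4938 bp (17428702 to 17433639), 3308 bp (17441722 to 17445029), 2591 bp (17407012 to 17409602) and 2445 bp (17450620 to 17453064). The last 2 overlapped disc peaks with scores of 127.82 and 191.32, and the GAF embryo peaks at the disc scores of 322.60 and 289.51 were 930 bp and 1590 bp wide. The 5 widest Yki embryo peaks measured 1445 bp (17458142 to 17459586, rank 150 of 3749), 1004 bp (17430841 to 17431844), 913 bp (17444845 to 17445757), 853 bp (17443885 to 17444737) and 848 bp (17456044 to 17456891). All 5 of these Yki peaks overlapped the 3 widest GAF peaks, the one at 17444845 to 17445757 by 185 bp only. Over the whole list GAF embryo peaks with Yki were also wider, with a median of 1385.5 bp against 429 bp without. Width may move with the caller and depth as well as with binding, which was not tested.

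Touching Yki and GAF peaks of the 4 lists merged into 36 sites, of which 10 held all 4 lists (27.8%, 15.8 to 44.0), against 13.5% of all 11285 merged sites. The 10 sites lay at 17405776 to 17406827, 17407012 to 17409679, 17415214 to 17416351, 17423657 to 17425955, 17428702 to 17434771 and 17441722 to 17445757 toward InR, and at 17455317 to 17461952, 17463924 to 17465578, 17465783 to 17468386 and 17475437 to 17477975 in the E2f1 span. Their widths ran from 1052 to 6636 bp with a median of 2571.5 bp, against 2025 bp for such sites over the genome. Merging of peaks rises with their density in both tissues, on which the window was chosen. Neither the share of sites with 4 lists nor their width is therefore evidence about the locus. The sites with most peaks held 11 (17441722 to 17445757) and 10 (17428702 to 17434771). Of the remaining sites, 12 were GAF in embryos alone, 33.3% against 21.5% over the genome.

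Combinations with few sites were as follows. GAF in both tissues without Yki made 3 sites, at 17441101 to 17441438, 17454224 to 17454809 and 17462589 to 17463371, and GAF in discs alone made 3, at 17479160 to 17479457, 17481377 to 17481906 and 17482247 to 17482446. These shares, 8.33% each, stand beside 9.26% and 11.6% over the genome. Yki with GAF in discs alone also made 3 sites, at 17471801 to 17472177, 17474207 to 17475225 and 17482518 to 17484500, against 7.14% over the genome. Yki in discs alone made 2 sites (5.56%, against 17.5%), at 17486544 to 17486830 and 17497095 to 17497367. Single sites held Yki and GAF in embryos alone (17447208 to 17447906, against 1.53% over the genome), Yki in embryos with GAF in both tissues (17450620 to 17453064, 3.48%), and Yki in discs with GAF in both tissues (17478240 to 17479022, 5.02%). No site held Yki in embryos alone, a class that makes up 3.83% of all sites, and 0 of 36 allows a share of up to 9.64% by the Wilson interval. The other 5 combinations were also absent. They were Yki in both tissues without GAF (3.01% of all sites), with GAF in discs (2.06%) or with GAF in embryos (0.0886%), Yki in embryos with GAF in discs (0.284%), and GAF in embryos with Yki in discs (0.204%).

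Sites of 1 tissue separated along the locus. All 13 sites made of embryo lists alone ended at or before 17469445, and all 8 sites made of wing disc lists alone began at or after 17471801, an order that was noticed in these data and not fixed beforehand. Over the genome, 26.8% of merged sites had embryo lists alone, 36.2% disc lists alone and 36.9% both, against 36.1%, 22.2% and 41.7% here. The InR span held 8 sites of embryos alone, 0 of discs alone and 7 of both, and the E2f1 span held 3, 7 and 8.

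The separation was clearest for GAF. Before that gap of 2355 bp lay 30 GAF embryo and 20 GAF disc peaks, and all 20 disc peaks overlapped an embryo peak while 13 of the 30 embryo peaks had no disc partner. Beyond it lay 2 GAF embryo and 9 GAF disc peaks: both embryo peaks overlapped a disc peak, and 7 of the 9 disc peaks had no embryo partner. Over the whole window 22 of 29 GAF disc peaks (75.9%, 57.9 to 87.8) had an embryo partner, against 61.1% of the list, and 19 of 32 GAF embryo peaks (59.4%, 42.3 to 74.5) a disc partner, against 59.2%. The GAF lists of the 2 tissues thus nested in opposite directions on the 2 sides. The gap was drawn from these same peaks, between the last site of embryos alone and the first of discs alone. The nesting therefore largely restates the order of those sites and is no separate result.

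Yki showed the same contrast beyond the gap, which lies within the E2f1 span, and no such nesting before it. As the Yki peaks also entered the sites that set the gap, this contrast is no separate result either. Beyond the gap lay 1 Yki embryo peak, 17477159 to 17477464, and 7 Yki disc peaks, of which 6 had no embryo partner. Before it, 5 of 16 Yki disc peaks had no Yki embryo partner and 5 of 15 Yki embryo peaks no disc partner. Over the window 11 of 16 Yki embryo peaks (68.8%, 44.4 to 85.8) met a Yki disc peak, against 66.2% of the list, and 12 of 23 Yki disc peaks (52.2%, 33.0 to 70.8) met a Yki embryo peak, against 38.7%. Midpoints of the 11 Yki embryo peaks that met a Yki disc peak lay a median of 64 bp from the nearest Yki disc midpoint. Such peaks over the list lay a median of 100 bp away. Both sets were taken because they overlap, which by itself keeps midpoints close. The closest pair, 17430841 to 17431844 in embryos and 17430947 to 17431754 in discs, differed by 8 bp. The farthest, at 17477159 to 17477464, differed by 692 bp because the disc peak there was 2365 bp wide against 306 bp.

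**Figure D4:**
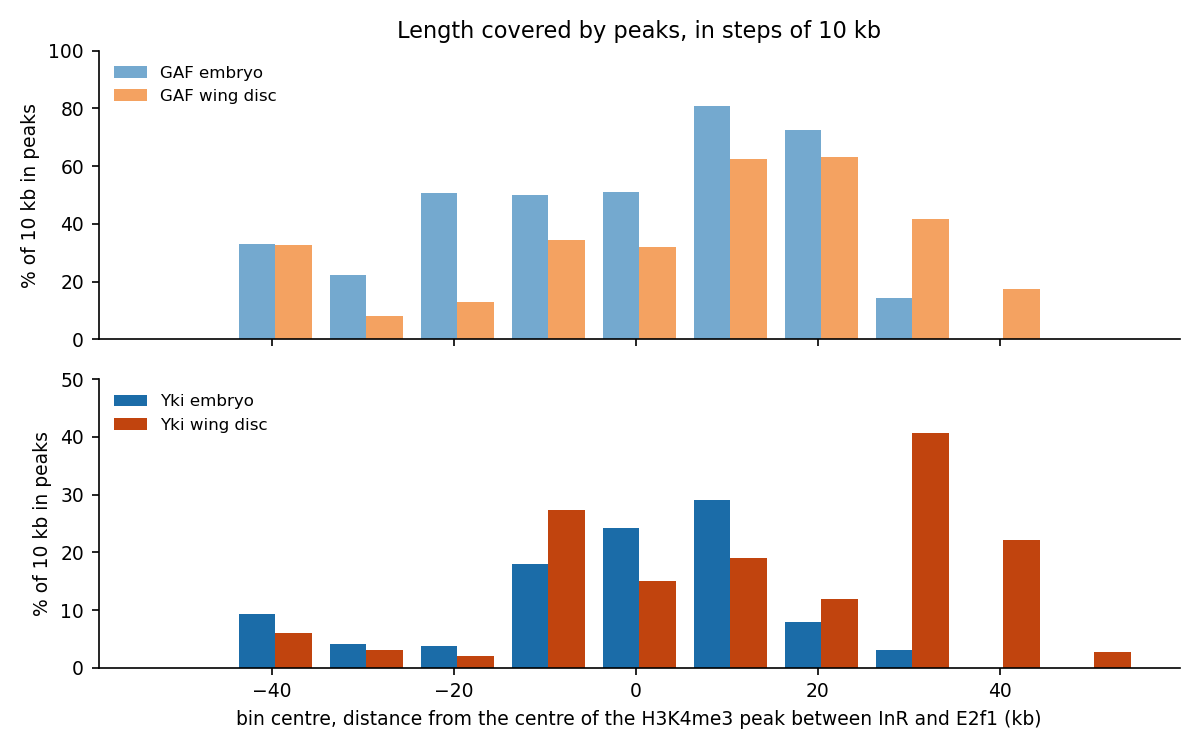
Percentage of each 10 kb step that lay in GAF (top) or Yki (bottom) peaks of embryos and wing discs, against the distance in kb of the step's centre from the H3K4me3 peak between InR and E2f1. GAF coverage is higher in embryos from 17410001 to 17470000 and both proteins are higher in discs from 17470001 to 17490000, where Yki disc peaks cover 40.7% of the first step.

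Covered length followed the same order for GAF, and for Yki only beyond the gap. From 17420001 to 17430000, in the InR span, GAF embryo peaks covered 50.8% of the sequence and GAF disc peaks 12.9%. From 17450001 to 17460000, in the E2f1 span, both were high, with 80.9% and 62.4%. Before the gap Yki went either way: discs were higher from 17430001 to 17440000 (27.3% against 17.9%) and from 17460001 to 17470000 (11.9% against 7.88%), embryos in the other steps with peaks, and over the InR span Yki covered 9.75% in embryos and 9.86% in discs. From 17470001 to 17480000 GAF embryo peaks covered 14.5% and GAF disc peaks 41.8%, while Yki covered 3.06% in embryos and 40.7% in discs. From 17480001 to 17490000 the embryo lists of both proteins covered 0.0%, against 17.6% for GAF and 22.2% for Yki in discs. Beyond the gap, 2 of the 7 Yki disc peaks were among the widest of the whole list of 6491, with 2365 bp (17475437 to 17477801, rank 29) and 1937 bp (17482518 to 17484454, rank 69).

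Peaks of 1 tissue were mostly weak or narrow. The 7 GAF disc peaks without an embryo partner had scores of 16.25, 9.65, 6.69, 43.33, 10.86, 10.05 and 10.86 in genome order, a median of 10.86 against 15.79 for such peaks over the list, and the peak at 17481377 to 17481906 (43.33) was the only 1 above the list median of 34.705. The 22 with a partner had a median of 55.95, below the 100.61 of such peaks over the list. The 13 GAF embryo peaks without a disc partner were 226 to 735 bp wide with a median of 410 bp, against 930 bp for the 19 with one. Over the whole list these medians were 387 bp and 849 bp, so the contrast is not particular to this locus. Yki disc peaks without an embryo partner had a median score of 12.06 (7.82 to 31.38) and those with one 21.12 (10.19 to 31.93), against 11.68 and 19.39 over the list. With the upper 50% of each list by score or width, 5 sites of embryos alone and 4 of discs alone were left, and 1 of those 4, at 17405776 to 17406086 in the InR span, lay before the embryo sites. Different peak calling for embryos and discs, and a difference between the tissues, cannot be told apart.

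H3K4me3 met 3 of the 36 merged sites (8.33%), against 36.0% over the genome. Of the Yki embryo peaks 3 of 16 overlapped an H3K4me3 peak (18.8%, 6.59 to 43.0), against 45.2% of the list, and of the GAF embryo peaks 2 of 32 (6.25%, 1.73 to 20.1), against 24.6%. In discs it was 4 of 23 Yki peaks (17.4%, 6.98 to 37.1) and 2 of 29 GAF peaks (6.90%, 1.91 to 22.0), against 52.2% and 37.2%. H3K4me3 of wing discs was not analysed here, so disc peaks are set against the embryo mark. The low shares are those of 6 marked stretches covering 4.36 kb among 100 Yki and GAF peaks. As the window was chosen for many Yki and GAF peaks and not for H3K4me3, these shares are no evidence about the locus. In the other direction 2 of the 6 H3K4me3 peaks overlapped Yki and GAF in embryos, against 24.3% and 24.6% of the list, 3 overlapped Yki in discs (44.9%) and 2 overlapped GAF in discs (37.4%).

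**Figure D5:**
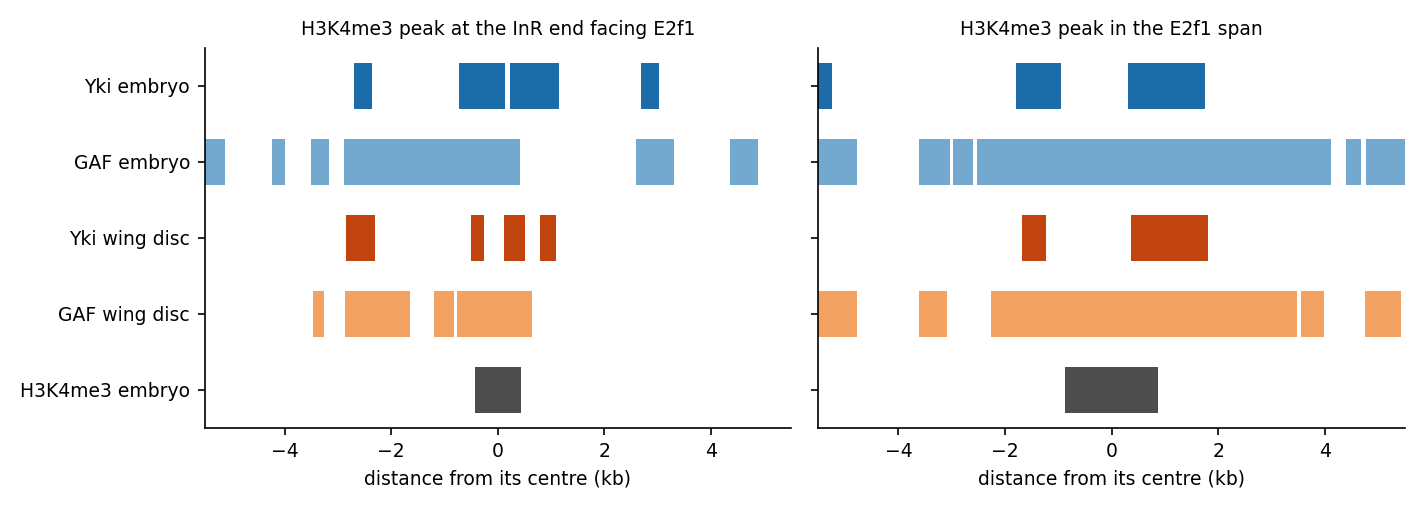
Peaks of the 5 lists within 5.5 kb of the centres of the 2 H3K4me3 peaks that carry Yki and GAF in both tissues, at the InR end facing E2f1 (left) and in the E2f1 span (right). At InR, Yki embryo peaks cover 87.7% of the mark; in the E2f1 span, Yki peaks lie on either side of a stretch of the mark that they leave uncovered.

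At the end of InR that faces E2f1, the H3K4me3 peak (17444173 to 17445042, 870 bp) lay inside the 4-list site of 11 peaks. GAF peaks covered 98.5% of it in embryos and 100% in discs. A pair of Yki embryo peaks, 17443885 to 17444737 and 17444845 to 17445757, covered 87.7% of it between them, and 2 Yki disc peaks (scores 17.00 and 22.56) covered 58.2%. Another Yki disc peak followed 355 bp beyond the mark with a score of 10.19. Yki peaks thus covered most of this mark in both tissues, and more of it in embryos than in discs. Different peak calling for embryos and discs, and a difference between the tissues, cannot be told apart here either.

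In the E2f1 span, the H3K4me3 peak at 17456973 to 17458711 (1739 bp) was the widest of the window and lay wholly within the widest GAF peaks of both tissues. Yki peaks stood at its edges in both tissues. In embryos the Yki peak at 17456044 to 17456891 ended 81 bp before it, the peak at 17458142 to 17459586 covered its last 570 bp, and 1169 bp of the mark carried no Yki peak. In discs the peak at 17456152 to 17456608 (score 15.28) ended 364 bp before it, the peak at 17458201 to 17459655 (score 20.17) covered its last 511 bp, and 1228 bp carried no Yki peak. The midpoints of these Yki pairs differed between the tissues by 87.5 bp and 64 bp.

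The other 4 H3K4me3 peaks lay toward the far end of E2f1 and beyond, in the stretch without Yki or GAF embryo peaks. They were 328 bp (17485541 to 17485868), 225 bp (17486029 to 17486253), 376 bp (17488340 to 17488715) and 819 bp (17496549 to 17497367) wide, all below the list median of 1262 bp. The nearest GAF embryo peak was 6640 bp from the first of them and the nearest Yki embryo peak 8076 bp. In discs the Yki peak at 17486544 to 17486830 lay 290 bp beyond the second, and the Yki peak at 17497095 to 17497367 lay wholly within the last, with low scores of 8.47 and 8.08. No GAF disc peak overlapped any of the 4, and the nearest was 1040 bp away.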

How the data were processed

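Chromatin of Drosophila embryos (9 libraries) and wing discs (5 libraries) was immunoprecipitated or kept as input, tagmented, amplified by 12 PCR cycles and sequenced, per the labels' protocols. CASAVA 1.7.0, BWA and Bowtie are named, with the dm3 build, per the submitters' processing notes. The authors deposited 5 peak lists, 1 per antibody and tissue. The embryo lists hold positions only. In the disc lists, whose peak names begin with MACS, the authors also deposited a score per peak from their peak calling. Its scale, the calling thresholds, and how replicates and input were used were not given in the sources used here. Positions are printed counted from 1.

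Overlap meant at least 1 bp shared, merged sites are unions of touching Yki and GAF peaks, and peaks were assigned to gene spans by midpoint. Python 3.11.15, numpy 2.4.6, pandas 2.3.3, scipy 1.17.1 and matplotlib 3.10.9 were used, and the overlap and merging steps were tested on simulated data. No test was made: peaks of 1 window are not replicates. The window and the lists compared were chosen with earlier results of these data known, as was the rule for named peaks: all sites with 4 lists, the 5 disc peaks of highest score and 5 widest embryo peaks per list, all H3K4me3 peaks, and all sites of combinations with 5 or fewer. Others were named after their values were seen. The alternatives were other overlap definitions, merging up to 200 bp, the top 50% of each list, assignment by midpoint and windows moved by 10 kb. Promoter motifs and counts over insulin, TOR and cell cycle genes were planned but not run, as no dm3 annotation or promoter sequence was used here.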

Additional observations from a re-analysis of the deposited data

How the results depend on the processing

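Moving the window by 10 kb or assigning peaks by midpoint changed no count of peaks by more than 1.5 times. The upper 50% of each list, by score or width, left 9 Yki and 17 GAF embryo peaks, 13 Yki and 15 GAF disc peaks and 1 H3K4me3 peak, in 20 merged sites (4 with all 4 lists, 5 of embryos alone, 4 of discs alone, 1 with H3K4me3), by construction fewer. In the InR span it left 4 Yki and 8 GAF embryo peaks, 6 GAF disc peaks and 0 H3K4me3 peaks, and in the E2f1 span 8 GAF embryo, 6 Yki disc, 9 GAF disc and 1 H3K4me3 peak. Merging peaks up to 200 bp apart gave 9 sites of embryos alone and 6 of discs alone, in the same order along the locus.

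With a reciprocal overlap of 50%, which narrow peaks on wide ones cannot meet, the share of Yki peaks on GAF was 0.0% in embryos and 17.4% in discs, that of GAF on Yki 0.0% and 13.8%, of GAF embryo on GAF disc peaks 37.5% and the reverse 41.4%. On H3K4me3 it was 6.25% of Yki embryo, 0.0% of GAF embryo and 0.0% of Yki disc peaks. With midpoints within 500 bp, Yki on GAF in embryos was 62.5%, GAF disc on GAF embryo 48.3%, Yki embryo on H3K4me3 6.25% and GAF embryo on H3K4me3 0.0%. With the first peak's midpoint inside the second, GAF on Yki in embryos was 15.6% and Yki embryo on H3K4me3 6.25%. These alternative shares were taken in the window alone. With no share of the whole lists beside them, they cannot show anything particular to the locus. No paired analysis was possible because there is 1 list per antibody and tissue, and for the same reason no replicate could be left out. Depth is unknown.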

Other observations

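In 2 places peaks of different lists ended on the same base. The H3K4me3 embryo peak and the Yki disc peak beyond E2f1 both ended at 17497367, 1 of 13 such shared ends between these lists over the genome. The GAF embryo peak at 17450620 and the GAF disc peak at 17451791 both ended at 17453064, 1 of 28 between the GAF lists.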
